A study of Mus musculus with 13 samples.

Results

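The 10 genes described here encode the insulin and IGF signalling set of adult mouse Sertoli cells: the ligand *Igf1*, the receptors *Insr* and *Igf1r*, the adaptors *Irs1* and *Irs2*, and the binding proteins *Igfbp2*, *Igfbp3*, *Igfbp4*, *Igfbp5* and *Igfbp7*. They were chosen by their known role and name, not by a measured value, although earlier results of these data were known. All 10 had a row among the 54281 features of the table, and 6 of them were among the 14421 genes with enough counts to be tested. RNA was sequenced from Sertoli cells of 6 control and 7 MSUS males, 1 library per mouse. All were adult wild-type mice of the C57Bl/6J strain (labelled Bl6 wt), 3 to 5 months old. MSUS names a paradigm in which pups are separated unpredictably from a dam that is itself stressed unpredictably. Those mice had as pups been kept apart from the dam for 3 h a day, at varying times, over postnatal days 1 to 14. Meanwhile their dams swam in water of 18 °C for 5 min or were restrained for 20 min. Control mice were not disturbed. The cells had been sorted as diploid, large and high in MitoTracker, a mitochondrial dye, with no Sertoli cell surface marker or transgene, so other large diploid cells could enter the gate. In the paper's counts, most cells of this fraction were positive for vimentin, its stain for Sertoli cells.

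Insulin and the insulin-like growth factors bind related receptor tyrosine kinases, which phosphorylate IRS adaptor proteins and so feed the PI3K to AKT and the Ras to MAPK branches. Secreted binding proteins hold IGFs in the extracellular fluid, carry them and limit or prolong their access to the receptor. In the testis, insulin and IGF receptors are known for their part in the number of Sertoli cells formed before adulthood.

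The start regions of 5 members are shown because these genes stand at the ends of the ranges described here: *Irs2* and *Irs1* are the adaptor pair with the widest gap in level, *Igfbp7* is the member called between groups and *Igf1r* the member nearest to it by p, and *Igf1* had the fewest counts. Each stretch is 300 bases of the gene's own strand, from 250 bases before to 50 bases after the RefSeq start in GRCm38.p6, and capitals mark CG dinucleotides. The windows are chr7:67952007-67952306 on the plus strand for *Igf1r*, chr8:11008880-11009179 on the minus strand for *Irs2*, chr1:82291390-82291689 on the minus strand for *Irs1*, chr5:77407996-77408295 on the minus strand for *Igfbp7* and chr10:87860861-87861160 on the plus strand for *Igf1*.
Igf1r: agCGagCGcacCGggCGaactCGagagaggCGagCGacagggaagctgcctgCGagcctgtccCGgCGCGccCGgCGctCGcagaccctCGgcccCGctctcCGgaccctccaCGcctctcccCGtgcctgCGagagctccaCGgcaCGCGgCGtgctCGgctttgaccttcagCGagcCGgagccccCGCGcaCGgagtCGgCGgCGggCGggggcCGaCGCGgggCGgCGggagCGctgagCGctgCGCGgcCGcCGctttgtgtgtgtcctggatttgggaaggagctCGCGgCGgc
Irs2: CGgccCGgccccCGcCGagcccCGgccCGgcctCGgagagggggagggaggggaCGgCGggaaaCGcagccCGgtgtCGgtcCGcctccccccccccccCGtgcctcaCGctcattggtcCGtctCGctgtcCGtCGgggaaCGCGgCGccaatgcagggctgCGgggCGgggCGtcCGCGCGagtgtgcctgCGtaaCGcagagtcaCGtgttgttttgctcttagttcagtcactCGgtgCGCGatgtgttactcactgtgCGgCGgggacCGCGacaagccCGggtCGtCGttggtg
Irs1: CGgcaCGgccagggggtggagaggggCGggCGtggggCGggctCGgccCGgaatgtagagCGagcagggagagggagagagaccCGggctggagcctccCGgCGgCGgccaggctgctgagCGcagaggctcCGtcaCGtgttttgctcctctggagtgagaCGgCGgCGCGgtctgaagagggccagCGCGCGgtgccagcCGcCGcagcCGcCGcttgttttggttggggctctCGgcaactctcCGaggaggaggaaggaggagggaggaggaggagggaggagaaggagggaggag
Igfbp7: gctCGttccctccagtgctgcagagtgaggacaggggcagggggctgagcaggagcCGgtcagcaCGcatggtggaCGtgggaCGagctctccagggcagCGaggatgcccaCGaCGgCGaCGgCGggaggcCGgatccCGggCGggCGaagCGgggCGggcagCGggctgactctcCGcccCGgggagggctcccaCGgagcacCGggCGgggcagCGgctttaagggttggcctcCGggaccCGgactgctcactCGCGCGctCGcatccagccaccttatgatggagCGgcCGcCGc
Igf1: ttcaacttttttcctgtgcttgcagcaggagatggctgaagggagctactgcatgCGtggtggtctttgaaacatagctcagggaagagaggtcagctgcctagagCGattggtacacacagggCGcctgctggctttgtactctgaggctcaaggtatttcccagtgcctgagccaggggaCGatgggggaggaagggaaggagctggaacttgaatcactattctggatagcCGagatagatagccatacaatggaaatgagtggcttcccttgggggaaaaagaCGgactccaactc

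The *Igf1r* window held 48 CG dinucleotides, more than 98.8% of the 32851 RefSeq windows of the same length, whose median was 7. *Irs2* held 41, more than 96.5% of windows, and *Irs1* held 28, more than 85.8%. *Igfbp7* held 33 (more than 91.4%) and *Igf1* held 6 (more than 43.6%). The table had windows for 9 of the 10 members. Among these 9, the letters TATAAA occurred on either strand in the window of *Igfbp4* only, against 13.6% of all windows. GTAAACA, the core that FOXO factors bind, occurred on neither strand in any member's window, against 3.65% of all windows. The *Irs1* and *Igfbp7* windows span the start of the gene in the GENCODE annotation, those of *Igf1r* and *Irs2* lie before it and that of *Igf1* lies inside the gene.

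The libraries held 9776853 to 14383367 counts on named genes. The 13 Sertoli cell markers had a mean log2 CPM of 8.11 ± 0.076 (SD, n = 6) in controls and 8.10 ± 0.088 (SD, n = 7) in MSUS samples. CPM are counts scaled to a common library size after TMM normalization, and a prior count of 2 was added before taking log2. Markers of other testicular cells were present too, with lower list means in log2 CPM. These means are not scaled by gene length, and the lists were not compared per length. Elongated spermatid markers averaged 7.40 ± 0.22 in controls, and the lists of Leydig, peritubular myoid, endothelial and macrophage cells averaged 2.13, 1.22, 0.89 and -0.39. Of the 8 macrophage markers only 1, *Mrc1*, passed the count filter, at a mean of 8.82 log2 CPM over all samples. In these bulk samples, fewer cells of a type and less RNA per cell cannot be told apart.

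Adult Sertoli cell RNA held transcripts of both receptors, of 1 of the 2 IRS adaptors and of 1 binding protein well above the rest, and the ligand *Igf1* was close to the limit of counting. Levels of different genes are compared per length, as CPM per kilobase of the merged exons of the gene. In controls the order was *Igfbp7* at 134 ± 13 (SD, n = 6), *Irs2* at 16.8 ± 3.7, *Igf1r* at 6.54 ± 0.91, *Insr* at 6.42 ± 0.91, *Igfbp3* at 2.23 ± 0.32, *Igfbp4* at 0.612 ± 0.239 and *Igfbp2* at 0.228 ± 0.123. *Igfbp5* at 0.0789 ± 0.0431, *Irs1* at 0.0512 ± 0.0490 and *Igf1* at 0.0467 ± 0.0513 closed the order. The neighbours *Igf1r* and *Insr*, and the last 3 genes, did not differ beyond their spread. *Igfbp7* stood above 98.5% of the 13352 tested genes with a length, *Irs2* above 79.3%, *Igf1r* above 56.4% and *Insr* above 55.8%, and the median of those genes was 5.12 CPM per kilobase. The merged exons of *Insr* and *Igf1r* are far longer than most of their annotated transcripts, so their values per length are low estimates if shorter transcripts prevailed.

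**Figure D1:**
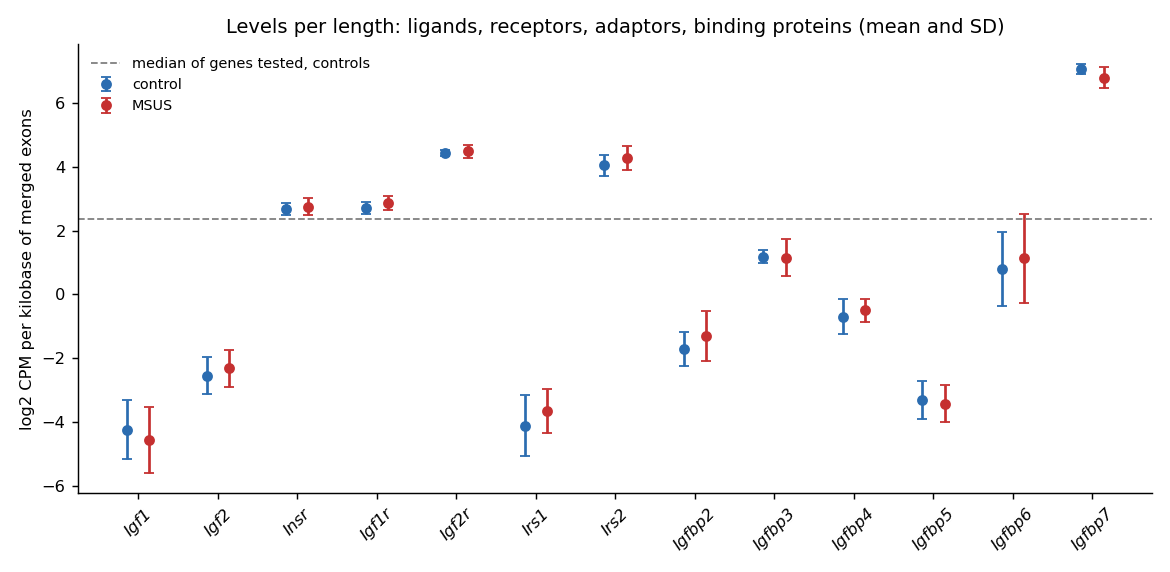
Level per length, as log2 CPM per kilobase of merged exons, of the members and of *Igf2*, *Igf2r* and *Igfbp6*. Points are group means and bars are SDs over 6 control (blue) and 7 MSUS (red) mice; the dashed line marks the median of the 13352 tested genes with a length. *Igfbp7* lies highest and *Igf1* and *Irs1* lowest in controls, and the adaptors *Irs2* and *Irs1* lie about 8 log2 units apart.

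*Igf1*, the ligand that acts through the IGF1 receptor, lies on chromosome 10 of GRCm38 from 87858265 to 87937042. It had 60 counts over all 13 libraries and was not tested in the fit across genes. Controls had 1 to 20 counts with a median of 3.5, and MSUS samples had 0 to 9 with a median of 3. MSUS 1 and MSUS 11 had 0 counts, which allows up to 0.257 and 0.293 CPM. The log2 CPM was -0.93 ± 0.92 (SD, n = 6) in controls and -1.26 ± 1.03 (SD, n = 7) in MSUS samples. The groups overlapped (exact permutation test over all divisions of the 13 samples into 6 and 7, two-sided, p = 0.559), and a difference was not detectable at this depth. The values allowed by 0 counts cover counting error only, not the spread between mice.

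Of the other ligands, *Igf2*, the fetal growth factor, passed the count filter and was at 0.151 ± 0.067 CPM per kilobase in controls, although most of its exon bases are shared with an annotated readthrough gene. *Ins1* and *Ins2*, the insulin genes, did not pass the count filter. By contrast *Igf2r*, the scavenger receptor that clears IGF2 and sorts lysosomal enzymes, was at 21.5 ± 1.4 CPM per kilobase in controls, above 83.9% of genes.

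*Insr*, the insulin receptor (chromosome 8, 3122061 to 3279617), ranged from 6.25 to 6.81 log2 CPM in controls with a median of 6.39. MSUS values lay between 6.21 and 6.94, around a median of 6.58. The MSUS range enclosed the control range. Its log2 fold change (MSUS minus control) was 0.076 (SE 0.11, 95% interval -0.16 to 0.31, limma adjusted p = 0.940). The interval leaves room for a fold between 0.896 and 1.24.

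*Igf1r*, the IGF1 receptor (chromosome 7, 67952827 to 68233668), ranged from 6.62 to 7.13 log2 CPM in controls with a median of 6.72, while MSUS values lay between 6.69 and 7.32 around a median of 6.86. In controls 5 of 6 values lay between 6.62 and 6.76, and control 10 stood apart at 7.13. The highest MSUS value, in MSUS 26, was the one value above all controls. The fit gave a log2 fold change of 0.16 (SE 0.10, 95% interval -0.049 to 0.37, limma adjusted p = 0.878), and 5 of 7 MSUS values exceeded the control mean. *Igf1r* did not pass the test with all samples, but had an unadjusted p under 0.05 when control 10 was left out (log2 fold change 0.24). Without control 10, 1121 of 14552 genes tested had such a p, against 781 of 14421 with all samples. Leaving out any other single sample kept the p of *Igf1r* above 0.05, and without MSUS 26 its log2 fold change fell to 0.098.

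Within a sample, the balance of the receptors does not depend on the normalization. Per length, *Igf1r* exceeded *Insr* by 0.027 ± 0.065 log2 units (SD, n = 6) in controls and by 0.11 ± 0.20 (SD, n = 7) in MSUS samples. The difference was above 0 in 8 of 13 samples. MSUS 1 had the largest, at 0.51, while the other samples lay between -0.065 and 0.20. The groups were not separated (exact permutation p = 0.418, adjusted over 2 ratios 0.578).

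*Irs2*, an adaptor that couples the receptors to PI3K (chromosome 8, 10984681 to 11008458), ranged from 6.31 to 7.09 log2 CPM in controls with a median of 6.72. MSUS values lay between 6.43 and 7.41, around a median of 6.93. MSUS 26 and MSUS 5 lay above all controls and the remaining values overlapped. A log2 fold change of 0.22 was fitted (SE 0.16, 95% interval -0.12 to 0.56, limma adjusted p = 0.885).

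*Irs1*, the related adaptor (chromosome 1, 82233101 to 82291416), had 83 counts in all, with 1 to 14 in controls and 3 to 14 in MSUS samples, and was not tested. Of its 9144 exon bases, 2822 are shared with a gene on the opposite strand, and the sources used here do not say whether counting used strand. The gap within the adaptor pair was far larger than its spread. *Irs2* exceeded *Irs1* per length by 8.16 ± 0.73 log2 units (SD, n = 6) in controls and by 7.93 ± 0.69 (SD, n = 7) in MSUS samples, with a smallest value of 6.56 and the same sign in 13 of 13 samples. The groups did not differ beyond their spread (exact permutation p = 0.578). The start regions printed above are both rich in CG, with 41 for *Irs2* and 28 for *Irs1*.

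**Figure D2:**
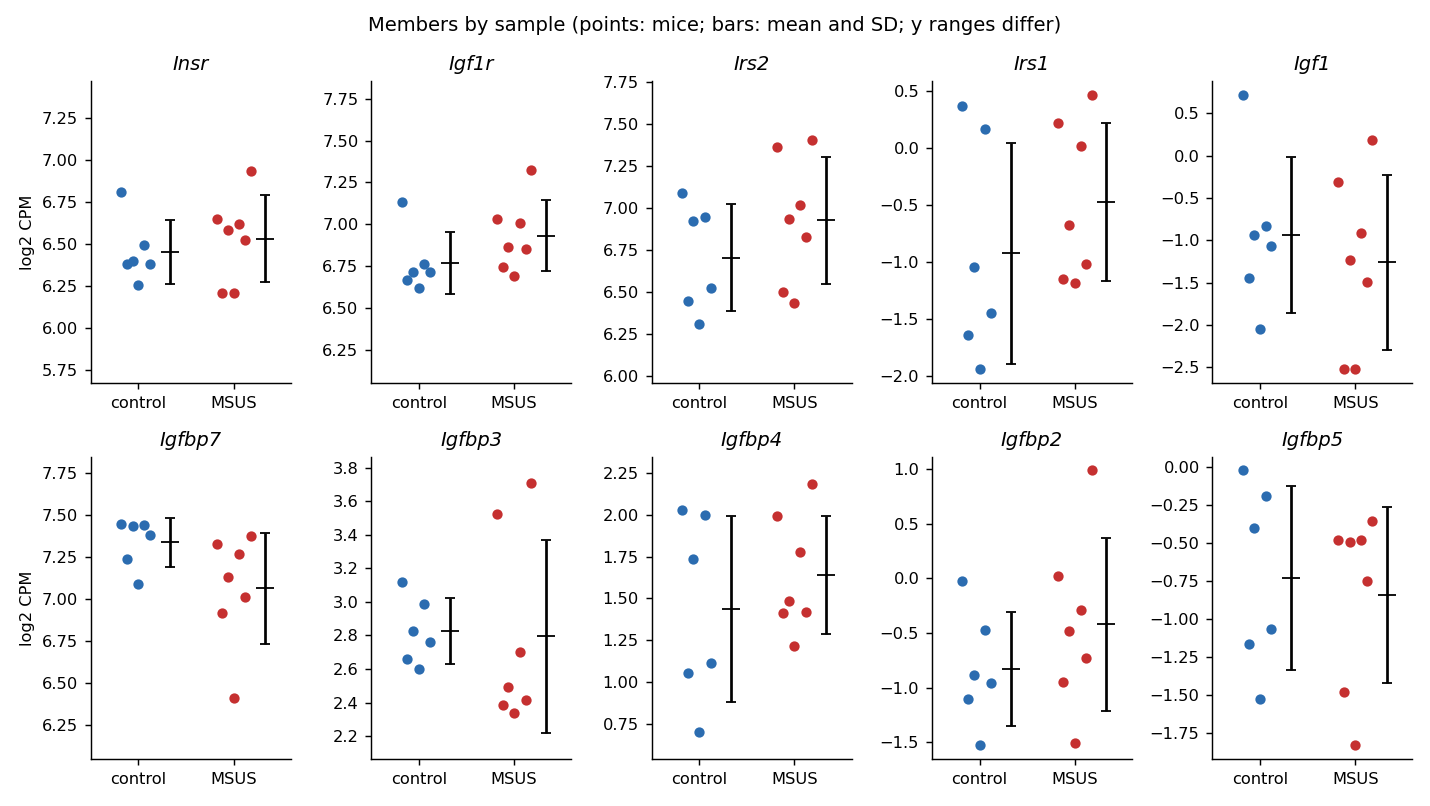
Log2 CPM of the 10 members in each mouse, 6 controls (blue) and 7 MSUS (red), with the group mean and SD as bars beside the points; the y ranges differ between panels. The groups overlap in every panel, and in the *Igfbp7* panel MSUS 1, MSUS 5 and MSUS 26 lie below all controls.

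Of the binding proteins, *Igfbp7* was lower in MSUS samples at an unadjusted p under 0.05. It encodes a secreted protein that binds IGFs weakly, binds insulin and is also made by vascular cells (chromosome 5, 77349240 to 77408041). Controls had 7.44, 7.09, 7.38, 7.43, 7.24 and 7.45 log2 CPM in controls 9, 10, 12, 14, 22 and 24. The 7 MSUS values lay between 6.41 and 7.37, around a median of 7.13. MSUS 1, MSUS 26 and MSUS 5, at 6.41, 6.92 and 7.01, lay below all controls, 6 of 7 MSUS values lay below the control mean, and 4 of 6 controls lay above all MSUS values.

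The log2 fold change of *Igfbp7* was -0.27 (SE 0.12, 95% interval -0.53 to -0.017), a fold of 0.827. The limma p was 0.0377 and the adjusted p over all genes tested 0.878. *Igfbp7* was thus 1 of 6 tested members at an unadjusted p under 0.05, in a comparison where 5.42% of the 14421 genes tested passed, 2.4% of them lower in MSUS samples. No gene had an adjusted p under 0.05, which is 0% of those tested. By DESeq2 and edgeR the count of genes with an adjusted p under 0.05 was also 0. The exact permutation test on log2 CPM gave p = 0.0711 for *Igfbp7*. Without MSUS 1, the lowest sample, the log2 fold change was -0.16 and no longer had a p under 0.05. That was also the case without MSUS 5, MSUS 26, control 9, control 12, control 14 or control 24. Of the 1209 exon bases of *Igfbp7*, 85 are shared with genes on the opposite strand.

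Marker lists of other testicular cells are given beside *Igfbp7*. The 9 endothelial markers averaged 0.89 ± 0.28 log2 CPM (SD, n = 6) in controls and 1.06 ± 0.11 (SD, n = 7) in MSUS samples. Their summed level was 55.5 to 71.5 CPM in controls and 55.7 to 77.1 CPM with MSUS, with no marker at 0 in every sample, while *Tie1* and *Emcn* had a median of at most 3 counts. *Igfbp7* itself averaged 162 ± 16 CPM in controls. The 7 peritubular myoid markers summed to 25.1 to 85.2 CPM in controls and 36.5 to 112 in MSUS samples. Their means were 1.22 ± 0.83 and 1.66 ± 0.90 log2 CPM, and neither list separated the groups (exact permutation p = 0.192 and 0.370). Without control 9 the endothelial difference was 0.24 log2 units (exact permutation p = 0.0429). The 7 spermatocyte markers averaged 4.59 ± 0.19 log2 CPM (SD, n = 6) in controls and 4.31 ± 0.43 (SD, n = 7) in MSUS samples, a difference of -0.28 (exact permutation p = 0.168), and summed to 189 to 271 and 124 to 304 CPM. They were lowest in MSUS 1, MSUS 5 and MSUS 26, at 3.60, 4.03 and 4.12, the libraries in which *Igfbp7* lay below all controls. No marker of the myoid or spermatocyte list was at 0 in every sample. With the interstitial marker score as a covariate the log2 fold change of *Igfbp7* was -0.28. That score joins the Leydig, peritubular myoid, endothelial and macrophage lists and holds no spermatocyte marker. With the elongated spermatid markers as a covariate the log2 fold change of *Igfbp7* was -0.29, and with the Sertoli markers -0.27. In all 3 of these fits the limma p stayed under 0.05. The part of spermatocytes in the *Igfbp7* difference was not tested, and that of the other cells was not tested beyond these 3 covariates.

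**Figure D3:**
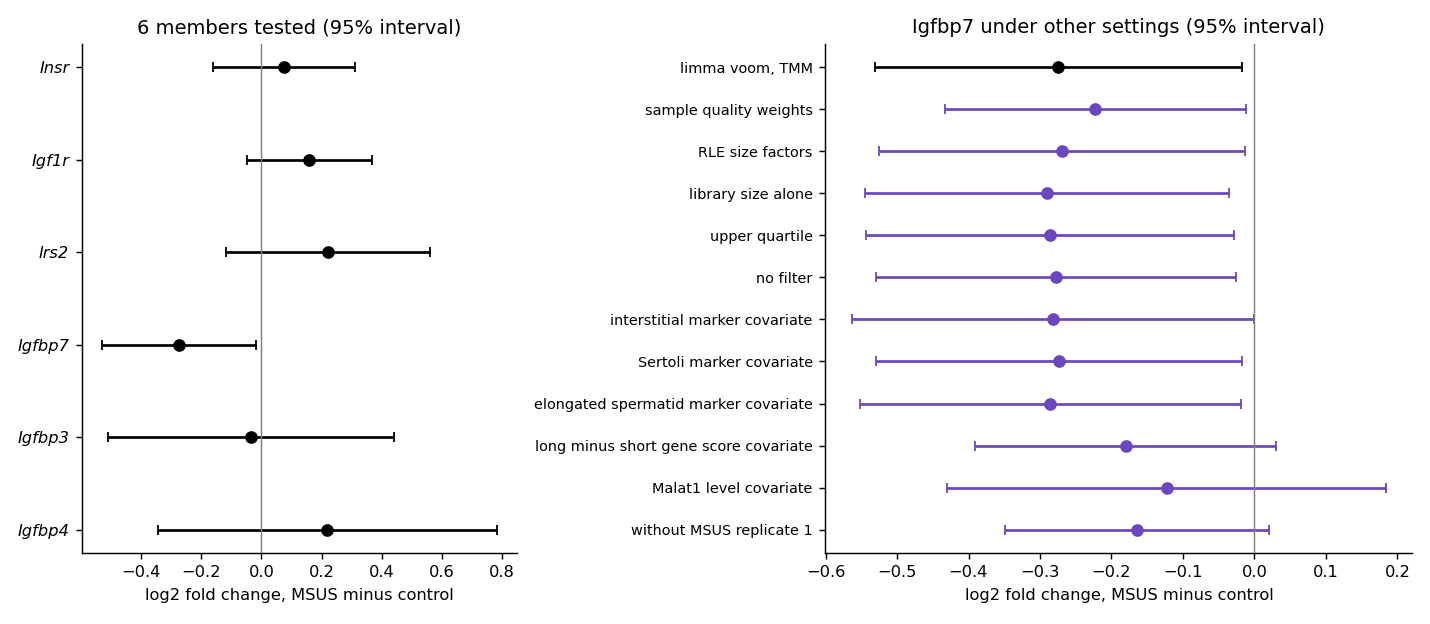
Log2 fold change, MSUS minus control, with 95% intervals from limma. On the left are the 6 members tested and on the right *Igfbp7* under other settings. Of the members, the interval leaves out 0 for *Igfbp7* only, and it takes in 0 for *Igfbp7* when the long minus short gene score or the *Malat1* level is a covariate or when MSUS 1 is left out.

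*Igfbp3*, the main carrier of IGFs in blood (chromosome 11, 7206086 to 7213923), had 53 to 149 counts per library. It ranged from 2.60 to 3.12 log2 CPM in controls with a median of 2.79. MSUS values formed a low cluster of 5 samples from 2.34 to 2.70 and a pair, MSUS 6 at 3.53 and MSUS 1 at 3.71, above all controls. The MSUS SD was 0.57 against 0.20 in controls. In the fit its log2 fold change was -0.035 (SE 0.23, 95% interval -0.51 to 0.44, limma adjusted p = 0.984), and its sign was positive by edgeR and DESeq2.

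*Igfbp4*, an inhibitory binding protein that the protease PAPP-A cleaves (chromosome 11, 99041244 to 99054392), had 15 to 53 counts per library. It was at 1.44 ± 0.55 log2 CPM (SD, n = 6) in controls and 1.64 ± 0.35 (SD, n = 7) in MSUS samples. Its log2 fold change was 0.22 (SE 0.27, 95% interval -0.34 to 0.78, limma adjusted p = 0.928), so the interval spans a fold of 0.788 to 1.72.

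*Igfbp2* and *Igfbp5*, neighbours on chromosome 1 (72824503 to 72852474 and 72857932 to 72874884), had 83 and 68 counts over all libraries and were not tested in the fit. *Igfbp2* was at -0.83 ± 0.52 log2 CPM (SD, n = 6) in controls and -0.42 ± 0.79 (SD, n = 7) in MSUS samples (exact permutation p = 0.313). *Igfbp5* was at -0.73 ± 0.60 (SD, n = 6) and -0.84 ± 0.58 (SD, n = 7), and the groups overlapped (exact permutation p = 0.740). No difference was detectable in either at this depth.

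*Igfbp7* made up nearly all binding protein RNA. Of the summed CPM per kilobase of *Igfbp1* to *Igfbp7* in a sample, it took 96.1 ± 1.9% (SD, n = 6) in controls and 94.4 ± 2.5% (SD, n = 7) in MSUS samples, with a range from 91.1 to 97.6%. With the median transcript length in place of merged exons its share was 93.5% and 90.8%. *Igfbp3* took 1.62 ± 0.38% in controls and 2.17 ± 1.55% in MSUS samples, and *Igfbp6*, which is no member, took 1.595 ± 1.75% and 2.47 ± 2.02%. *Igfbp4* took 0.441 ± 0.172% and 0.622 ± 0.297%, *Igfbp2* 0.164 ± 0.082% and 0.319 ± 0.253%, and *Igfbp5* 0.0568 ± 0.0310% and 0.0642 ± 0.0392%. None of the 5 shares separated the groups. The exact permutation p was 0.194 for *Igfbp7*, and the adjusted values over the 5 members ranged from 0.383 to 0.712.

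Downstream and around the members, 95 further genes of the pathway were listed by role and 76 were tested. At an unadjusted p under 0.05, 2 were higher and 0 were lower in MSUS samples, where 3.02% of all genes tested were higher and 2.4% lower. In sign 49 were positive and 27 negative, against 7141 and 7280 over all genes tested. Their median log2 fold change was 0.041, against -0.00175 over all genes tested.

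Among the negative regulators, 13 of 14 were tested and *Inppl1* was higher. It encodes SHIP2, a phosphatase that removes the 5-phosphate of the PI3K product. It went from 6.42 ± 0.17 log2 CPM (SD, n = 6) in controls to 6.66 ± 0.15 (SD, n = 7) in MSUS samples. MSUS and control differed by 0.24 on the log2 scale (SE 0.083, 95% interval 0.065 to 0.41, limma adjusted p = 0.878), with 4 of 7 MSUS values above all controls and 7 of 7 above the control mean. Of its 6399 exon bases 1299 are shared with genes on the opposite strand. With *Malat1* as a covariate, its log2 fold change was 0.16 and the p was no longer under 0.05. *Phlpp2*, an AKT phosphatase, had a log2 fold change of 0.27 (SE 0.18) and did not pass.

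All 23 genes of the PI3K, AKT and mTOR list were tested and 1, *Rptor*, was higher. *Rptor* encodes Raptor, the subunit that defines mTORC1. It was at 5.88 ± 0.17 log2 CPM (SD, n = 6) in controls and 6.11 ± 0.23 (SD, n = 7) in MSUS samples, with a log2 fold change of 0.23 (SE 0.10, 95% interval 0.0076 to 0.44, limma adjusted p = 0.878). Without MSUS 5, 6, 23 or 26, or control 9, 12, 14 or 22, its p was no longer under 0.05, nor was it with the interstitial score, a score of long against short genes or the *Malat1* level as a covariate (0.18, 0.18 and 0.13), with no count filter or with unnamed features kept (0.22 each). *Tsc2*, part of the complex that holds mTORC1 in check, had 0.20 (SE 0.11).

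The remaining lists held no called gene. In the Ras and MAPK list, with 13 of 13 tested and a median log2 fold change of 0.0091, *Araf* had 0.17 (SE 0.082) and *Map2k2*, which encodes MEK2, 0.11 (SE 0.068). Of the FOXO factors and known FOXO targets 12 of 15 were tested, with a median of 0.046. There the cell cycle inhibitor *Ccng2* had 0.16 (SE 0.10) and the transcription factor *Klf15* -0.11 (SE 0.094). Of the other adaptors 8 of 11 were tested, with a median of -0.031, and *Sh2b1* and *Crkl* had -0.13 (SE 0.073) and -0.15 (SE 0.15). Of the growth hormone axis 3 of 5 were tested, and the kinase gene *Jak2* had 0.14 (SE 0.097) and the receptor gene *Ghr* 0.32 (SE 0.34). Of the other ligands and receptors 2 of 5 were tested, *Igf2* with 0.30 (SE 0.40) and *Igf2r* with 0.050 (SE 0.085). Of the other binding proteins and their partners 2 of 9 were tested, *Igfbp6* with 0.29 (SE 0.64) and *Pappa*, the gene of PAPP-A, with 0.17 (SE 0.46).

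**Figure D4:**
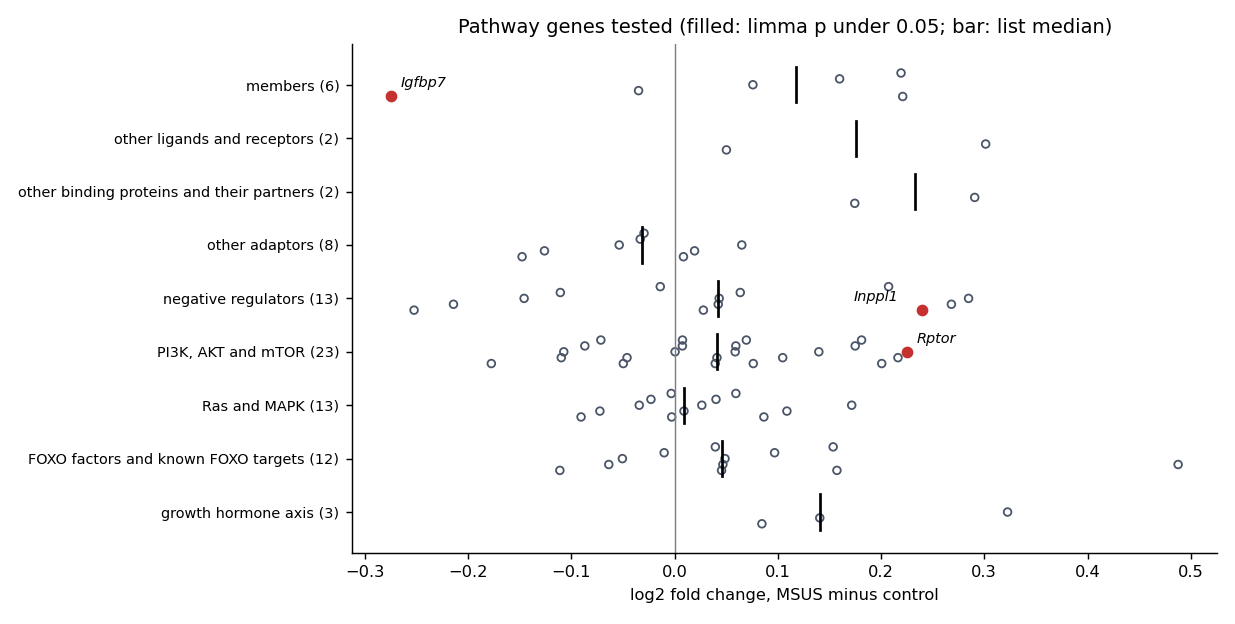
Log2 fold change, MSUS minus control, of each pathway gene tested, by list, with the number tested in brackets; filled points had an unadjusted limma p under 0.05 and bars mark list medians. *Igfbp7* lies left of 0, and *Inppl1* and *Rptor* lie right of it among open points of similar size.

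Across the 13 mice, *Insr* and *Igf1r* varied together, with Pearson's r = 0.748 (permutation p = 0.00317, adjusted over 15 pairs of members 0.0476) and Spearman's rho = 0.676 (permutation p = 0.0143, adjusted 0.107). Without MSUS 26 and control 10, the samples farthest from the median, r was 0.359, so the relation rests on those samples. The other 14 pairs had adjusted p-values of 0.111 or more for Pearson's r. For *Igf1r* and *Igfbp7*, which did not pass over the 15 pairs, the values were r = -0.673 (permutation p = 0.0148, adjusted 0.111), rho = -0.731 (permutation p = 0.00591, adjusted 0.0887) and r = -0.760 without MSUS 26 and control 10. Within controls that r was -0.819 and within MSUS samples -0.560.

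The genes whose levels were most like those of a member over the 13 samples were found by Pearson's r over all genes tested, as a description. For *Igf1r* they were *Herc2*, *Mycbp2* and *Tnik*, with r of 0.964, 0.962 and 0.962. For *Igfbp7* they were *Cox5a*, *Arl2bp* and *Atp6v0c*, with r of 0.927, 0.926 and 0.924. For *Insr* they were *Fgd6*, *Kmt2b* and *Zfp628* (0.951, 0.898 and 0.895) and for *Irs2* they were *Ddx46*, *Olfr905* and *Zmat3* (0.934, 0.922 and 0.916). *Igfbp3* was most like *Mms19*, *Gbp7* and *Fgf11* (0.866, 0.849 and 0.819), and *Igfbp4* was most like *Glb1l2*, *Zfp972* and *Gm16070* (0.873, 0.857 and 0.853).

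The samples also differed in how long the abundant genes were, which moved with several members. Tested genes were ranked by exon length and cut into 4 classes of equal size, and for each sample the mean log2 CPM of the shortest class was subtracted from that of the longest class. This score was 1.23 ± 0.10 (SD, n = 6) in controls and 1.31 ± 0.17 (SD, n = 7) in MSUS samples (exact permutation p = 0.360). The median log2 fold change, MSUS minus control, was -0.045 in the shortest class, then -0.023, 0.0063 and 0.044 in the longest. *Igf1r*, whose 16791 exon bases put it in the longest class, followed the score with r = 0.911 (permutation p = 0.00011, adjusted over 12 relations 0.00132) and rho = 0.659 (permutation p = 0.0168, adjusted 0.0403). *Igfbp7*, with 1209 exon bases, had r = -0.677 (permutation p = 0.0179, adjusted 0.0430) and rho = -0.764 (permutation p = 0.00348, adjusted 0.0139). *Igf1r* and *Insr*, of the longest class, and *Igfbp7*, of the shortest, are themselves among the genes of the score. Their r was not compared with that of other genes of those classes, so it is not shown to be particular to them. Without MSUS 26 and MSUS 5, r was 0.795 for *Igf1r*, -0.724 for *Igfbp7*, 0.268 for *Irs2* and 0.209 for *Insr*, against 0.654 and 0.616 for the last 2 over all samples, so Pearson's r of *Irs2* and *Insr* rests on those samples. By ranks over all samples, *Irs2* had rho = 0.665 (permutation p = 0.0157, adjusted 0.0403) and *Igfbp4* had rho = 0.632 (permutation p = 0.0236, adjusted 0.0472), while *Insr* had rho = 0.379 (permutation p = 0.202, adjusted 0.269). For *Irs2*, r was 0.770 within controls and 0.570 within MSUS samples. Within controls r was 0.773 for *Igf1r* and -0.914 for *Igfbp7*, and within MSUS samples it was 0.985 and -0.590.

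*Malat1*, an abundant nuclear RNA, was at 9.92 ± 0.56 log2 CPM (SD, n = 6) in controls and 10.63 ± 0.43 (SD, n = 7) in MSUS samples (exact permutation p = 0.0274). Over the 13 samples its level had r = 0.733 with *Igf1r* (permutation p = 0.00429, adjusted 0.0172) and rho = 0.802 (permutation p = 0.00169, adjusted 0.0101). With *Irs2* it had r = 0.738 (permutation p = 0.00391, adjusted 0.0172) and rho = 0.593 (permutation p = 0.0365, adjusted 0.0626), with r = 0.770 within controls and 0.714 within MSUS samples. With *Igfbp7* it had r = -0.579 (permutation p = 0.0408, adjusted 0.0612) and rho = -0.896 (permutation p = 0.0001, adjusted 0.0012). For *Igfbp7*, r was -0.832 within controls but only -0.284 within MSUS samples. For *Igf1r* the 2 values were 0.636 and 0.736. With the length score as a covariate the log2 fold change of *Igfbp7* was -0.18, and with *Malat1* it was -0.12, and neither had a p under 0.05. With *Malat1* as a covariate the log2 fold change of *Irs2* turned from 0.22 to -0.13 and that of *Igf1r* from 0.16 to -0.034. *Malat1* itself differed between the groups, so with it as a covariate its part and that of MSUS cannot be told apart. The part of gene length and of *Malat1* in these results was not tested further.

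**Figure D5:**
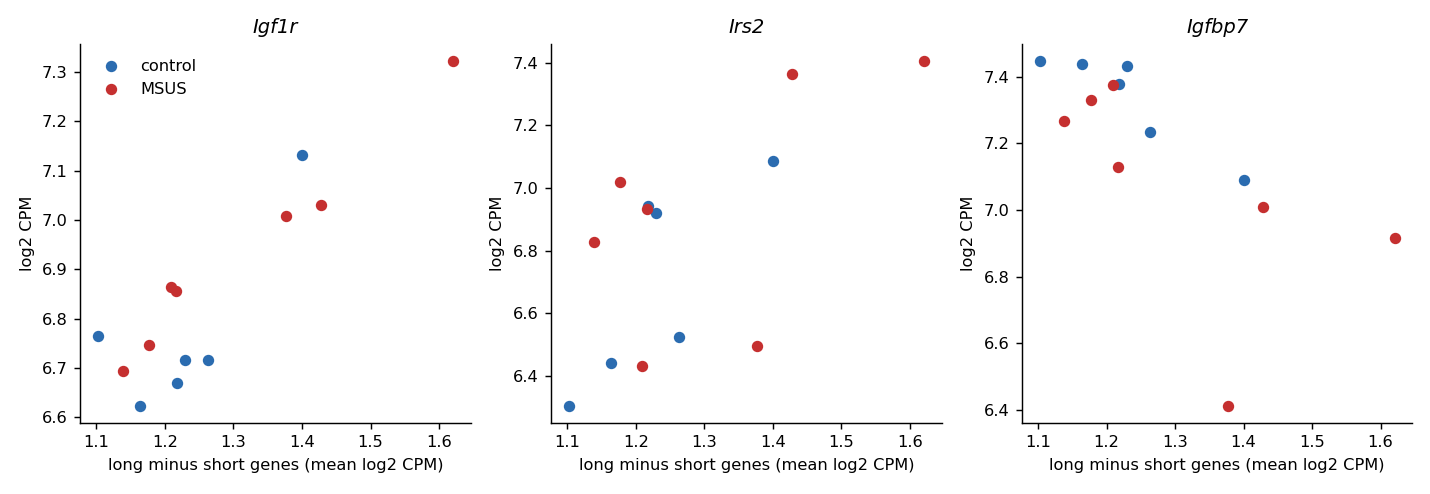
Log2 CPM of *Igf1r*, *Irs2* and *Igfbp7* against the long minus short gene score (mean log2 CPM of the longest minus the shortest length class of genes), 1 point per mouse, controls blue and MSUS red. *Igf1r* is higher and *Igfbp7* lower where the score is higher, in both groups, and MSUS 26 has the highest score at 1.62.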

How the data were processed

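RNA of sorted Sertoli cells of 6 control and 7 MSUS mice was sequenced from 5 ng with a stranded total RNA kit, 12 PCR cycles and single-end reads of 100 bases. The authors trimmed reads (Trim Galore 0.6.5), assigned them with Salmon 1.1.0 to GENCODE transcripts and deposited estimated counts per gene, not normalized. The strand setting is not given in the sources used here. Estimated counts were rounded to whole numbers. The 27170 features without a gene name, holding 20.7% to 26.7% of the deposited counts per library, were left out. Total counts ranged from 12701776 to 18649945. Among the 78 pairs of libraries, counts differed by 6.12 to 50.0 times the sampling noise, so no library was counted as a duplicate.

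Genes were filtered by filterByExpr and tested with limma 3.58.1 (voom, TMM from edgeR 4.0.16, R 4.3.3) with all 13 samples, two-sided, with Benjamini-Hochberg adjustment over all genes tested. A gene was called at an unadjusted p under 0.05, the study's threshold. Single values were compared by exact permutation over all 1716 divisions of the samples, for which the smallest p is 0.000583, and correlations by 100000 permutations. Counts were also drawn with known changes for the 14421 genes of this comparison. Their dispersion was set to 0.05 for every gene and was not estimated from the data. In these draws 63% of genes changed by 0.5 on the log2 scale and 99% of those changed by 1 had p under 0.05. So did 4.8% of unchanged genes. These shares need not hold for genes with a wider spread between mice, such as *Igfbp4*. Members and lists were chosen with earlier results of these data known. Named genes were all members, of each pathway list the called genes and, where fewer than 2 were called, the 2 with the smallest p, and the 3 tested genes most like each tested member. Coordinates and exon lengths are from GENCODE vM21 (GRCm38, the build of the authors' vM23 index) and start regions from RefSeq (GRCm38.p6).

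Alternatives were edgeR's quasi-likelihood test, DESeq2 1.42.0, sample quality weights, other normalizations and filters, 3 marker covariates and leaving out each sample. The long minus short gene score and *Malat1* as covariates were added after seeing the data. Samples are separate mice. Litter, cage and the second cohort were not analysed here.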

Additional observations from a re-analysis of the deposited data

Results flagged for a closer look

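*Igf1r* in control 10 stood at 7.13 log2 CPM, apart from the other controls, which ranged from 6.62 to 6.76. Control 10 was also the lowest control in the round spermatid markers, at a mean log2 CPM of 3.50 against 3.70 to 3.79 in the rest. The share of *Igfbp3* in binding protein RNA was 5.40% in MSUS 1, against 1.19 to 2.94% in the other MSUS samples. The share of *Igfbp7* was 92.3% in control 22, against 96.3 to 97.4% in the other controls, and *Igfbp6* took 5.11% in that library. These 4 values came from 54 groups of values, of which 2.7 are flagged by chance at a rate of about 1 in 20.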

How the results depend on the processing

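Of 886 alternative values, 787 kept their direction and side of the threshold or, for counts, stayed within 1.5 times the reported count. *Igfbp7* was lower in MSUS samples under each alternative run, from -0.33 to -0.16 when single samples were left out, and its p was above 0.05 under 9 of them. The count of members called, 1, became 2 with the elongated spermatid covariate, where *Igf1r* was added at 0.20, and 0 with the length score or *Malat1*. Without single samples it ranged from 0 to 2. The count of other pathway genes called, 2, became 1 with no count filter, with unnamed features kept, with the interstitial covariate or with the length score, 5 with the elongated spermatid covariate and 0 with *Malat1*, and ranged from 1 to 5 without single samples. It was 4 without MSUS 11, 5 without MSUS 13 and 1 without MSUS 23 or MSUS 26. The count of member pairs, 1, became 0 with library size alone and with values centred within groups. Counts over all genes shifted too. Of the 14421 genes tested, 781 were called in the fit reported, 1136 with the elongated spermatid covariate and 553 with the interstitial covariate. With the length score 684 were called and with *Malat1* 401. With no count filter it was 1182 of 23680, and with unnamed features kept 934 of 16815. Without single samples the count over all genes ranged from 534 to 1121. The cause of these shifts was not tested.

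With *Malat1* as a covariate the log2 fold change turned to -0.11 for *Insr*, -0.034 for *Igf1r*, -0.13 for *Irs2*, -0.034 for *Igf2r*, -0.13 for *Igfbp6*, -0.14 for *Pappa*, -0.050 for *Phlpp2* and -0.00298 for *Tsc2*. With the length score it was -0.00459 for *Insr* and -0.015 for *Igf2r*, and with the interstitial score -0.30 for *Igfbp6*. With the interstitial score 1 gene of all those tested had an adjusted p under 0.05, against 0 in the fit reported. *Araf*, at 0.17, had a p under 0.05 under 8 alternatives, with values from 0.174 to 0.198, among them the fits without MSUS 6, MSUS 13, control 12, control 14 or control 22. *Tsc2* did so without MSUS 11 (0.25) or MSUS 13 (0.25) and with the elongated spermatid score (0.23), *Map2k2* without control 9 (0.16), the *Igfbp2* share without MSUS 6 (0.195 percentage points, exact permutation p = 0.0476) and the spermatogonia markers without control 24 or MSUS 26 (0.18 each). *Igfbp3* had 0.067 by edgeR and 0.072 by DESeq2. Without single samples, signs turned within ranges of -0.20 to 0.043 for *Igfbp3*, -0.023 to 0.077 for *Igf2r*, -0.010 to 0.76 for *Igfbp6*, -0.049 to 0.40 for *Pappa* and -0.443 to 0.000165 for *Irs2* minus *Irs1*. The difference in share ranged from -0.00384 to 0.0161 percentage points for *Igfbp5* and from 0.0688 to 0.195 for *Igfbp2*. Marker differences ranged from -0.13 to 0.16 for Leydig cells, -0.023 to 0.020 for Sertoli cells, -0.015 to 0.16 for lymphocytes, -0.016 to 0.18 for macrophages and -0.090 to 0.15 for round spermatids.

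Depth limits *Igf1*, *Irs1*, *Igfbp2* and *Igfbp5*, each with at most 83 counts in all. Spread between mice limits the rest. No paired analysis was made, and the replicate numbers do not say which mice are related. Litter and cage were not analysed here, so relatedness of the mice was not modelled.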
